A study of Homo sapiens with 2 samples.

Results

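The transcription factors that direct intestinal progenitors toward enteroendocrine cells, and those that hold gut epithelial identity, were examined in hNCI-H716 cells. The set was given by gene symbol and holds 9 genes, namely NEUROG3, NEUROD1, INSM1, PAX6, ISL1, RFX6, FOXA2, CDX2 and HNF4A. Of these, 8 had a row among the 19989 genes of the expression table, and NEUROD1 had no row in the table used here and is counted as not detected. The hNCI-H716 line is an established human line from a colorectal adenocarcinoma, and stands in for the L-cell, the enteroendocrine cell that secretes glucagon-like peptide 1 (GLP-1). Cells were plated on Matrigel for 24 h and then kept for 48 h in medium with low (5.5 mM) or high (25 mM) glucose. Each concentration gave 1 library, made from polyadenylated RNA. Levels are given as CPM, the reads assigned to a gene scaled to a library of 1000000 assigned reads. The low glucose library held 21758050 estimated counts and the high glucose library 19454496, so that 3 counts, the limit that an observed count of 0 allows, correspond to 0.138 CPM and 0.154 CPM. Each level carries a 95% Wilson interval and each ratio a 95% exact binomial interval, and both cover counting error alone. With 1 library per concentration there was no replicate, no test between the concentrations was possible, and every ratio compares these libraries rather than the treatments. In bulk RNA of this kind, fewer cells with a transcript and less of it in each cell cannot be told apart.

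Enteroendocrine cells arise from crypt progenitors that escape Notch signalling and switch on a cascade of basic helix-loop-helix factors, in which ATOH1 marks the secretory branch, NEUROG3 commits a cell to the endocrine fate for a short time, and NEUROD1 follows as the cell leaves the cycle. INSM1, PAX6, ISL1 and RFX6 act later, on hormone genes and on the machinery of secretion. FOXA2, CDX2 and HNF4A are present more widely in the gut epithelium, where they set the regional and epithelial programme on which the endocrine factors work.

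The cell type named by the label was first checked against its markers. GCG, which encodes proglucagon, the precursor of GLP-1, was at 1954 CPM in low and 1808 CPM in high glucose. The granin gene CHGA was at 704 and 653 CPM, and PCSK1, whose product cuts proglucagon to GLP-1, at 555 and 600.3 CPM in the same order. CHGB, SCG2, SCG3 and SYP each exceeded 100 CPM in both libraries. PYY, the other hormone typical of L-cells, had no row. Among epithelial markers, the intestinal cadherin CDH17 was at 523 and 544 CPM, and the brush border gene VIL1 at 11.7 and 17.8 CPM. EPCAM was low, at 3.37 and 3.50 CPM, and CDH1, the cadherin of most epithelia, was at or under 3 counts in both libraries (1 and 3 estimated counts). Markers of L-cells other than PYY were thus abundant, while several epithelial markers were low, among them LGALS4 at 0.933 and 0.833 CPM.

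The factors fell into 3 bands. HNF4A, ISL1 and FOXA2 exceeded 50 CPM in both libraries, CDX2, RFX6 and INSM1 lay between 24.8 and 38.2 CPM, and PAX6 and NEUROG3 lay below 1.5 CPM. CPM grows with the length of a transcript, so the order of the genes is given further on per kilobase.

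**Figure D1:**
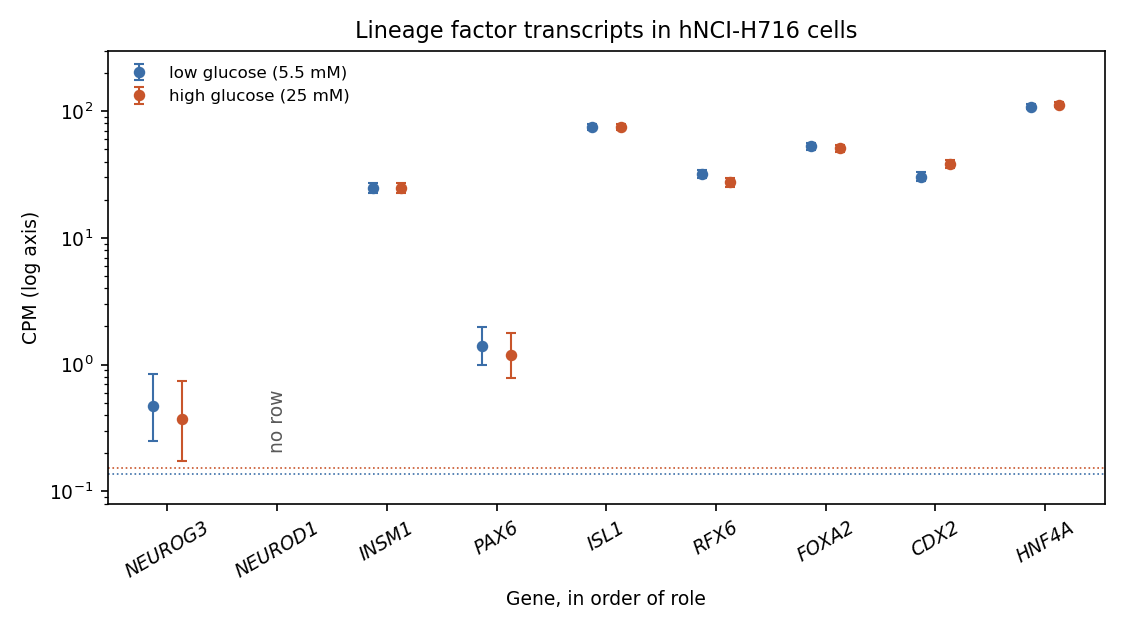
CPM of each factor (log axis) in the low glucose (blue) and high glucose (orange) libraries, with 95% Wilson intervals; dotted lines mark 3 counts in each library. NEUROG3 is the lowest, at 0.472 and 0.371 CPM, HNF4A the highest, at 109 and 112 CPM, and NEUROD1 has no row.

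NEUROG3, which commits cells to the endocrine fate, was at a trace, and NEUROD1, which follows it, had no row. NEUROG3 (ENSG00000122859.4; chr10:69571698-69573238, minus strand, GENCODE v29 on GRCh38, as for all genes below) was at 0.472 CPM in low glucose (0.25 to 0.85, from 10.0 estimated counts). In high glucose it was at 0.371 CPM (0.17 to 0.74, from 7 estimated counts). Both intervals lay above the limit of 3 counts, so that the transcript was present at a trace in each library, and they overlapped widely. Its log2 ratio of high over low glucose was -0.35, with an interval from -1.99 to 1.18, too wide for a difference to be read from it at this depth.

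NEUROD1 (ENSG00000162992.3; chr2:181673088-181680876, minus strand), the factor that follows NEUROG3 and binds the promoters of several hormone genes, had no row under its current symbol or any of 6 older symbols. Of the 19936 protein-coding symbols in GENCODE v29, 30.7% had no row, and why NEUROD1 is among them was not tested. Its main transcript shares 236 bases (8.27%) with exons of CERKL on the same strand, and CERKL was at 27.8 and 25.2 CPM. Among the nearest relatives of NEUROG3 and NEUROD1, NEUROG1, NEUROG2, NEUROD4 and NEUROD6 likewise had no row. NEUROD2, a factor better known from neurons, was at 3.88 CPM in low and 2.58 CPM in high glucose, with a log2 ratio of -0.59 (-1.13 to -0.07). ATOH1, the factor of the whole secretory branch, stood far above them. It was at 141 and 124 CPM, or 63.6 and 56.0 CPM per kilobase, against 0.343 and 0.270 CPM per kilobase for NEUROG3. In these cells the abundant member of the proneural family was therefore the one upstream of the endocrine branch point.

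Basic helix-loop-helix factors bind the E-box, CANNTG, as pairs with the E-proteins TCF3, TCF4 and TCF12, and the ID proteins withhold those partners. TCF12 was at 54.2 and 57.4 CPM per kilobase and TCF3 at 39.3 and 38.3 CPM per kilobase, whereas TCF4 was at 0.173 and 0.106. The inhibitor ID3 was the most abundant gene of the partner list, at 359.5 and 343 CPM per kilobase, followed by HES6 at 173 and 175 and ID1 at 163 and 149. Transcripts of TCF3 and TCF12 were thus abundant beside trace NEUROG3, and those of TCF4 were not. Per kilobase of principal transcript, the inhibitors ID1, ID2 (98.3 and 95.7 CPM per kilobase) and ID3 exceeded all 3 partners. ID3 did so in CPM as well, at 450 and 429 CPM against 260 and 275 CPM for TCF12. ID1, at 162 and 148 CPM, lay below TCF12 and TCF3 (175 and 170 CPM), so that its place depends on the length used. ID2, at 201 and 195 CPM, lay below TCF12 and above TCF3, so the same holds for it.

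The sequences upstream of NEUROG3, of ISL1, the highest of the factors per kilobase, and of HNF4A, the highest in CPM, are shown so that these 3 loci can be set side by side. RefSeq (GRCh38.p14) promoter entries were matched by symbol for 6 of the 9 factors, with 15 start sites between them. INSM1, RFX6 and FOXA2 were not matched. The 250 bases before each start were searched on both strands for the E-box CANNTG, the forkhead motif TGTTTAC, the caudal motif TTTATNG and the GATA motif AGATAA. Over all 35116 such windows, these occurred in 61.8%, 2.98%, 8.93% and 9.17%. Sequences run 5′ to 3′ on the strand of the gene, with matches in capitals. In the factors' windows, matches overlapped once, for a pair of E-boxes before the start of PAX6 numbered 2 in the entries. The NEUROG3 window is chr10:69573423-69573672 (minus strand), that of ISL1 chr5:51383198-51383390 (plus strand), and those of HNF4A chr20:44355449-44355698 and chr20:44400989-44401238 (plus strand).
NEUROG3: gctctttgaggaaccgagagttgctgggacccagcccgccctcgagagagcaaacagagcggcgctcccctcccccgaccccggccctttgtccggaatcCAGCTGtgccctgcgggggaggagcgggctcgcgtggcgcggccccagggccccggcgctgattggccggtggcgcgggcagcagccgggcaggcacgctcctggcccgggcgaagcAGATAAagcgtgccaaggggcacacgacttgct
ISL1: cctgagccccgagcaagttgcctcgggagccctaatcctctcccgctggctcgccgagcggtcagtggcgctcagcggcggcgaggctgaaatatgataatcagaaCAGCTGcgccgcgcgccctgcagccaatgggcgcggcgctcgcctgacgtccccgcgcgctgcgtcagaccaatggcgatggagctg
HNF4A start 1: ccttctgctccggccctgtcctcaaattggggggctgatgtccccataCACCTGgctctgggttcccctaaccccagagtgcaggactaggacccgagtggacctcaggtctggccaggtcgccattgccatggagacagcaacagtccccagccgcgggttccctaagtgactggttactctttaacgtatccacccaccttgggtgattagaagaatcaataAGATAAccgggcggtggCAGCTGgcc
HNF4A start 2: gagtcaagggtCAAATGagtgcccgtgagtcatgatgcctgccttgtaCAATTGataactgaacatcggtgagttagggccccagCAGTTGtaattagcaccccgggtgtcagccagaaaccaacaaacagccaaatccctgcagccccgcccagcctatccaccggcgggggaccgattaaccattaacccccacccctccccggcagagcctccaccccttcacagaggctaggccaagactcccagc
A match describes the sequence and does not show that a factor binds there. The NEUROG3 window lies upstream of the annotated NEUROG3 transcript and holds 1 E-box, 150 to 145 bases before the start, and 1 GATA match, 33 to 28 bases before it. These distances are from the RefSeq start, which itself lies upstream of the GENCODE start of NEUROG3. The ISL1 window holds 1 E-box, 144 to 139 bases before the start, and 1 GATA match, 31 to 26 bases before it. That GATA match falls in the last 57 bases, which GENCODE places in the untranslated part of the first exon and which are not printed. Both of these windows are rich in CG, with 25 and 27 CG dinucleotides against a median of 11 over all windows. Per kilobase, NEUROG3 was at 0.307 CPM on average and ISL1 at 30.6 CPM.

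INSM1 (ENSG00000173404.4; chr20:20368121-20370949, plus strand) is a zinc finger repressor that silences progenitor genes as endocrine cells mature, through a complex with RCOR1, KDM1A, HDAC1 and HDAC2. It was at 24.8 CPM in low glucose (22.8 to 26.9) and 25.0 CPM in high glucose (22.8 to 27.3). The libraries gave almost the same value, with a log2 ratio of 0.01 (-0.17 to 0.19). Its relative INSM2 was lower, at 2.68 and 2.59 CPM per kilobase against 8.76 and 8.82 CPM per kilobase for INSM1. All 4 complex genes were present. HDAC1 was at 144 and 149 CPM per kilobase, KDM1A at 58.8 and 67.3, RCOR1 at 41.0 and 42.7, and HDAC2 at 14.6 and 15.9. Each of them thus exceeded INSM1 per kilobase in both libraries.

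PAX6 (ENSG00000007372.22; chr11:31784779-31818062, minus strand), a paired-box factor that binds the proglucagon promoter, was at 1.41 CPM in low glucose (0.98 to 2.0, from 30.4 estimated counts). In high glucose it was at 1.19 CPM (0.79 to 1.8, from 23.0 estimated counts). The intervals overlapped, and the log2 ratio of -0.25 had an interval from -1.10 to 0.58. PAX6 was low although GCG ranked among the most abundant hormone transcripts of these cells. Even this level is uncertain, because 75.1% of the main PAX6 transcript (5238 bases) overlaps exons of ELP4 on the opposite strand. ELP4 was at 41.7 and 42.3 CPM, and since the sources do not state that counting used the strand, reads of the pair cannot be told apart with certainty. PAX4, the close relative of PAX6 that acts in other endocrine lineages, had no row.

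ISL1 (ENSG00000016082.14; chr5:51383391-51394738, plus strand), a LIM-homeodomain factor that also acts on the proglucagon gene, was at 75.2 CPM in low glucose (71.6 to 78.9) and 75.4 CPM in high glucose (71.7 to 79.4). This gave a log2 ratio of 0.01 (-0.10 to 0.11), the smallest in size among the 8 factors. Per kilobase it was the highest of the set, at 30.6 and 30.7 CPM. Its relative ISL2 was at 4.36 and 3.58 CPM per kilobase. LDB1, the adaptor through which LIM factors assemble, was at 20.0 and 18.9 CPM per kilobase, while LDB2 had no row.

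RFX6 (ENSG00000185002.9; chr6:116877212-116932163, plus strand), a winged-helix factor needed for endocrine cells of gut and pancreas, was at 32.0 CPM in low glucose (29.7 to 34.5) and 27.5 CPM in high glucose (25.2 to 29.9). The log2 ratio was -0.22, a difference of -14.2%, and its interval of -0.39 to -0.06 left out 0. RFX6 was not the leading gene of its family. RFX5, which acts on immune genes in many tissues, was at 21.6 and 22.3 CPM per kilobase, against 9.25 and 7.94 for RFX6 and 5.48 and 5.99 for RFX7. RFX1, RFX2 and RFX3 lay between 0.911 and 3.12 CPM per kilobase, and RFX4 and RFX8 had no row. The place of RFX6 above RFX2, RFX3 and RFX7 rests on the principal transcripts, because the median transcripts of these genes are much shorter. RFX3, which also acts in endocrine cells and in cilia, was at 8.48 and 11.6 CPM, a log2 ratio of 0.45 (0.17 to 0.74) opposite in sign to that of RFX6, and RFX2 had -0.43 (-0.79 to -0.07).

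FOXA2 (ENSG00000125798.14; chr20:22581005-22585455, minus strand) is a forkhead pioneer factor that opens chromatin in endoderm. It was at 52.8 CPM in low glucose (49.8 to 55.9) and 51.0 CPM in high glucose (47.9 to 54.3), with a log2 ratio of -0.05 (-0.17 to 0.07). Its relative FOXA1 was higher, at 67.8 and 67.2 CPM per kilobase against 22.0 and 21.3 for FOXA2, and FOXA3 was lower, at 11.6 and 13.8. All 3 genes of this family were thus present, with principal transcript lengths in the same order in each library. The median FOXA3 transcript is shorter, at 1.26 kb against 1.99 kb. With median lengths, FOXA2 stayed above FOXA3 per kilobase in low glucose, while in high glucose FOXA3 lay slightly above.

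CDX2 (ENSG00000165556.9; chr13:27962137-27971139, minus strand), the caudal homeodomain factor that specifies intestine, was at 30.5 CPM in low glucose (28.2 to 32.9) and 38.2 CPM in high glucose (35.5 to 41.0). These intervals did not overlap. High glucose was 25.3% above low glucose, and the log2 ratio of 0.33 (0.17 to 0.48) was the largest in size among the 7 factors with a mean of at least 1 CPM. CDX1, which overlaps with CDX2 in function along the gut, and CDX4 had no row, so that CDX2 was the single caudal gene with a value. The window before the RefSeq start of CDX2 (chr13:27969316-27969565, minus strand) held 1 forkhead, 1 caudal and 1 GATA match and no E-box. It was the sole window of the 15 with a forkhead match. GENCODE v29 places this window inside the untranslated part of a longer CDX2 transcript, so it is not printed. The same holds for the window of NEUROD1, in which none of the motifs occurred, which says nothing of the factor.

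HNF4A (ENSG00000101076.16; chr20:44355700-44434596, plus strand), a nuclear receptor that drives enterocyte and hepatocyte genes, was at 109 CPM in low glucose (105 to 113) and 112 CPM in high glucose (108 to 117). The log2 ratio was 0.05 (-0.04 to 0.13). Its relative HNF4G, which is typical of intestine, was at 13.6 and 12.6 CPM per kilobase against 16.9 and 17.4 for HNF4A. The gene is read from a pair of separate promoters, and the windows printed above lie before them. The first, upstream of the annotated transcripts, holds 2 E-boxes and 1 GATA match, the latter 26 to 21 bases before the start, and the second, within an intron of the longer transcripts, holds 3 E-boxes and none of the other motifs. Gene-level values do not separate transcripts from these promoters.

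Ordered by mean CPM per kilobase, ISL1 (30.6) was followed by FOXA2 (21.6), HNF4A (17.2), INSM1 (8.79), RFX6 (8.59), CDX2 (8.47), NEUROG3 (0.307) and PAX6 (0.187). ISL1, FOXA2 and HNF4A were each separated from the next gene by intervals that did not overlap in either library. INSM1 and RFX6 overlapped in both libraries and cannot be ordered. RFX6 exceeded CDX2 by 1.23-fold in low glucose, while in high glucose the order was the opposite, at a ratio of 0.842, and their intervals overlapped in neither. The widest gap was that between CDX2 and NEUROG3, of 21.9-fold in low glucose and 34.9-fold in high glucose. NEUROG3 and PAX6 overlapped in both libraries. The order rests on the longest principal transcript of each gene. HNF4A has many short transcripts, and with the median length of the protein-coding transcripts it came first, at 72.0 CPM per kilobase, and PAX6, at 0.738, passed NEUROG3. With the union of all exons, CDX2 (8.33) passed RFX6 (7.26).

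**Figure D2:**
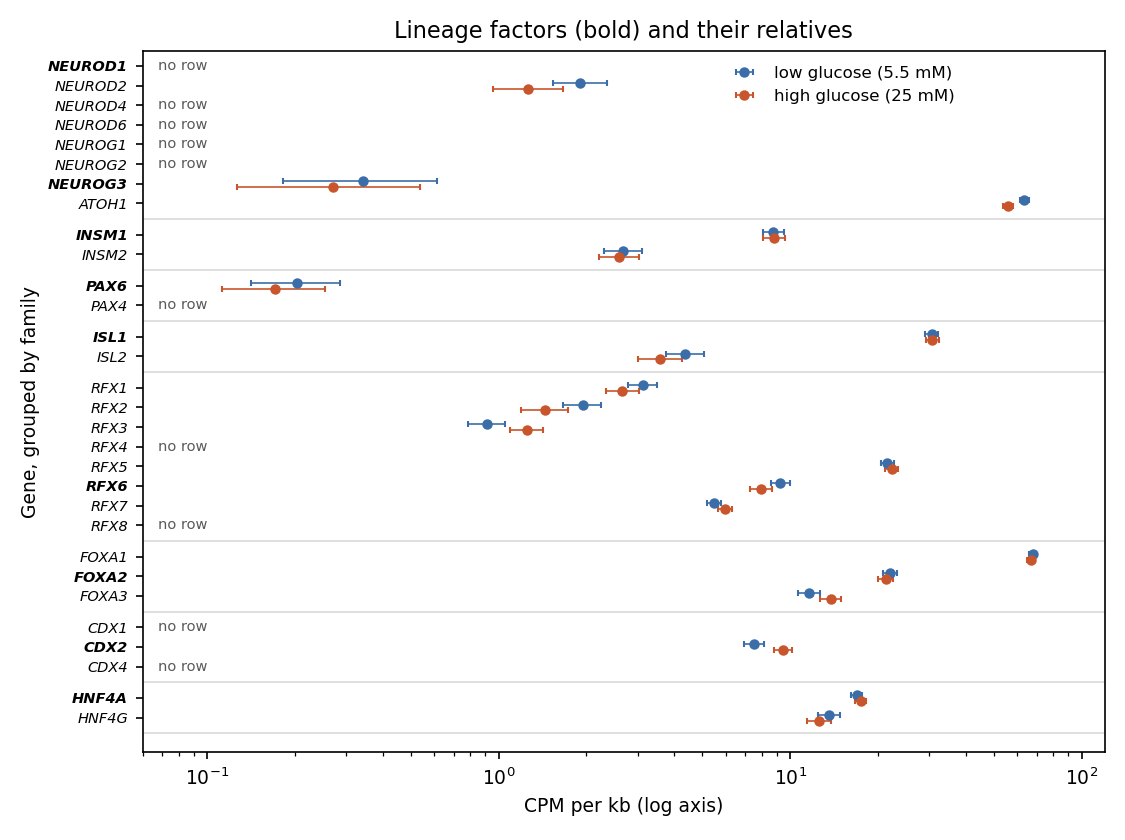
CPM per kilobase (log axis) of the lineage factors (bold) and their relatives, grouped by family, in low glucose (blue) and high glucose (orange), with 95% Wilson intervals. ATOH1, FOXA1 and RFX5 exceed the NEUROG3, FOXA2 and RFX6 of their families, while INSM1, ISL1 and HNF4A exceed their relatives.

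The factors were then compared between the glucose concentrations. Of the 7 factors whose mean was 1 CPM or more, 0 had a log2 ratio of 1 or more in size, against 109 of 13052 genes (0.835%) at that level of expression. At a log2 ratio of 0.5 the count was again 0, against 5.38% of genes. The counting interval lay above 0 for 1 factor, CDX2, against 15.8% of genes, and below 0 for 1 factor, RFX6, against 15.9% of genes. The median log2 ratio of the 7 factors was 0.01, and that of the 13052 genes was -0.01, with an SD of 0.31. That SD includes genes with few counts. Among the 500 genes nearest in mean CPM, the SD was 0.16 for CDX2, whose log2 ratio of 0.33 exceeded those of 96.0% of them in size. For RFX6, at -0.22, these were 0.17 and 85.0%.

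**Figure D3:**
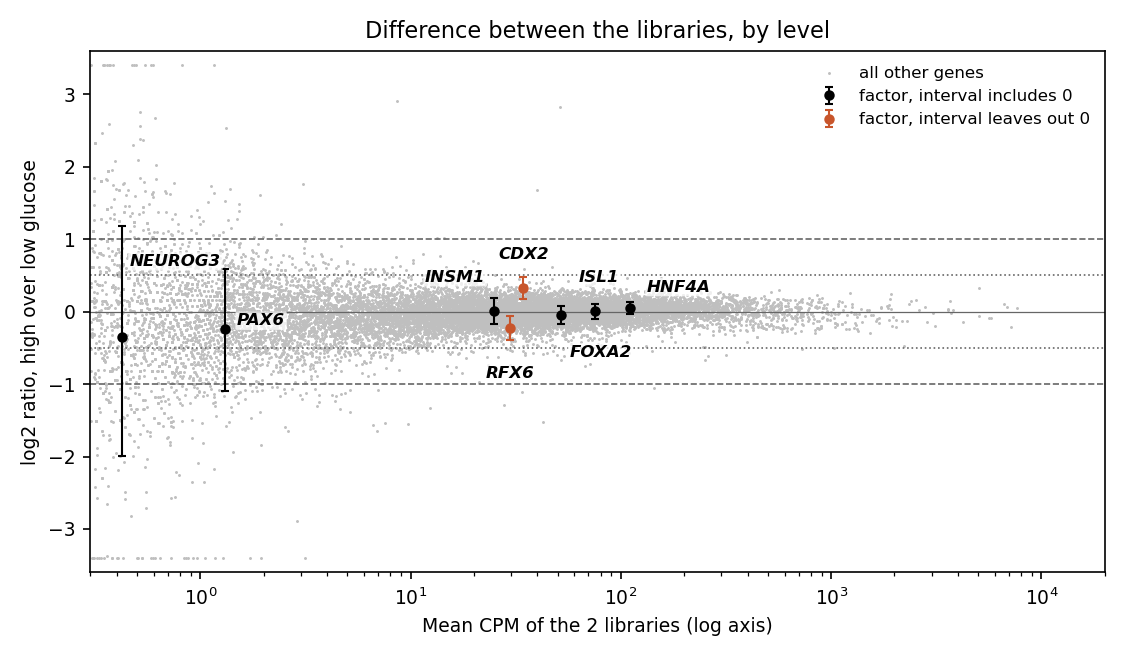
Log2 ratio of high over low glucose against the mean CPM of the 2 libraries (log axis), for all genes (grey) and the 8 factors with a row, with exact binomial 95% intervals; lines mark ratios of 0.5 and 1 in size, and values beyond the axis are drawn at its edge. CDX2 (0.33) and RFX6 (-0.22), in orange, have intervals that leave out 0, and the wide intervals of NEUROG3 and PAX6 follow from their few counts.

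Other factors of the endocrine lineage were taken from a list of 26 genes, to which 6 of the 9 factors belong. Of these 26, 20 had a row and 16 had a mean of at least 1 CPM. The most abundant per kilobase were ATOH1, at 59.8 CPM on average, ETV1 at 44.0 and PDX1 at 36.5. With principal transcript lengths, each exceeded ISL1 on this scale. With the median length ISL1, at 43.8, passed PDX1, whose length stayed the same. Among those without a row, besides NEUROD1, were PAX4, NKX2-2, LMX1A and NKX6-1, and MAFA was under 3 counts in both libraries. FEV, a factor of serotonin-producing cells, was at 0.611 and 0.577 CPM. Of the 16 genes, 0 reached a log2 ratio of 0.5 in size, against 5.38% of all genes, and intervals lay above 0 for 2 and below 0 for 3, against 15.8% and 15.9%. ATOH1, at -0.19 (-0.26 to -0.11), was among the lower ones. The largest ratios were -0.49 for ST18 (-0.72 to -0.26) and 0.45 for RFX3. The median was -0.01.

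The list of gut epithelial factors held 24 genes, of which 19 had a row and 18 a mean of at least 1 CPM. FOXA1, at 67.5 CPM per kilobase on average, and KLF5 at 64.4 led it, and FOXA2 and HNF4A followed within the upper part. CDX1, GATA4, GATA5 and ISX were among those without a row, and GATA6 was at 1.85 and 2.22 CPM. The larger log2 ratios were 0.87 for SOX9 (0.04 to 1.76), a progenitor factor at 0.933 and 1.71 CPM, and 0.48 for EHF (-0.01 to 0.98). The intervals of 5 of the 18 genes, CDX2 among them, lay above 0 and that of 1 below it, against 15.8% and 15.9% of all genes, and the median of the list was 0.03.

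Factors of unrelated lineages served as a comparison. Of 24 such genes, from muscle, blood, neural crest, heart, lung and other tissues, 17 had no row and 4 had a mean of at least 1 CPM. PAX5, known from B cells, was the highest, at 3.95 and 4.14 CPM per kilobase. POU1F1, a pituitary factor, was at 3.19 and 2.76, and POU5F1 at 1.61 and 1.51. With the length of the principal transcript, which is 8.62 kb for PAX5, the 6 more abundant lineage factors, from CDX2 upward, exceeded PAX5 per kilobase. This rests on that length, because the median PAX5 transcript is 1.02 kb, and the PAX5 mean of 34.9 CPM was above those of INSM1, RFX6 and CDX2. Per kilobase, NEUROG3 lay below 4 of these unrelated genes, of which PAX8 (0.746 and 0.485) was the lowest. The intervals of NEUROG3 and PAX8 overlapped in both libraries, so these genes cannot be ordered. With the principal transcript, the mean of PAX6 lay below SOX2 (0.219) as well, but their intervals also overlapped in both libraries. With the median transcript length PAX6, at 0.738, lay above SOX2, whose length stayed the same. The largest log2 ratio in this list was -0.62 for PAX8 (-1.23 to -0.03).

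**Figure D4:**
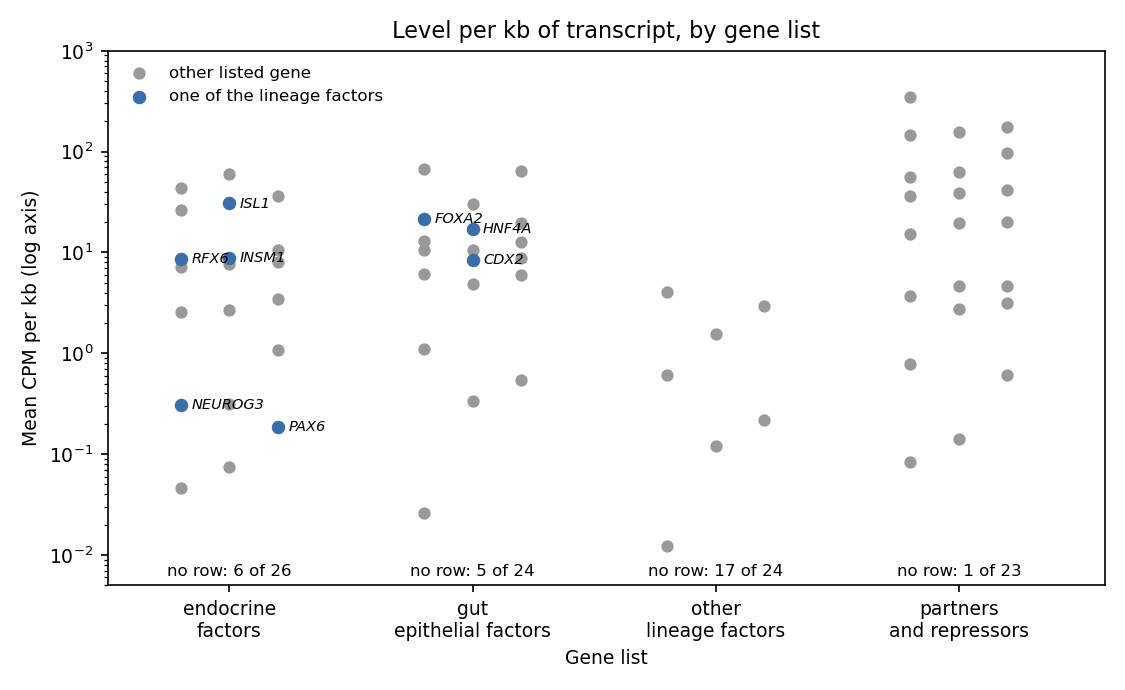
Mean CPM per kilobase over the 2 libraries (log axis) of each gene with a row in 4 lists, with the lineage factors in blue and the number without a row under each list; sideways position only separates points. With principal transcript lengths, the blue points from CDX2 upward lie above PAX5 (4.05), whose place depends on the length used, and NEUROG3 and PAX6 lie at 0.307 and 0.187.

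Genes that act with or against the factors formed a list of 23, of which 22 had a row and 21 a mean of at least 1 CPM. Its median log2 ratio was -0.01. Intervals lay above 0 for 6 and below 0 for 3 of the 21 genes, against 15.8% and 15.9% of all genes. KDM1A had 0.20 (0.13 to 0.26) and JAG1 0.27 (0.10 to 0.44). REST, which represses neuronal and endocrine genes, was at 26.3 CPM in low and 19.4 CPM in high glucose, with a log2 ratio of -0.44 (-0.63 to -0.25). The largest ratios were those of low genes, -0.70 for TCF4 (-1.66 to 0.19) and 0.59 for HEY1 (-0.11 to 1.31), with intervals that included 0. Of the Notch effectors that hold NEUROG3 off in progenitors, HES1 was at 57.1 and 56.7 CPM, and HES5 was under 3 counts in both libraries.

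Target genes of the factors were read in the same way. Of 24 endocrine targets, 16 had a row and 15 a mean of at least 1 CPM, and their summed level was 5895 CPM in low and 5652 CPM in high glucose. GCG led with 1516 and 1403 CPM per kilobase, ahead of SST, the somatostatin gene (885 and 832), and CHGA (341 and 316). PYY, CCK, GIP, GHRL, SCT, TAC1, TPH1 and SLC18A1 had no row. Intervals lay above 0 for 2 and below 0 for 6 of these 15 genes, against 15.8% and 15.9% of all genes, with -0.56 for SCG5 (-0.98 to -0.15) and 0.27 for SCGN (0.06 to 0.48) the largest in size, and the median was -0.03. Of 21 gut targets, 13 had a row and 9 a mean of at least 1 CPM, summing to 805 and 841 CPM. LCT, FABP1, APOA1, APOA4, APOC3, APOB, MTTP and SLC5A1 had no row. FABP2 was at 0.242 and 0.217 CPM, and KRT20 was at or under 3 counts in both libraries. CDH17, a known CDX2 and HNF4A target, led with 142 and 147 CPM per kilobase, followed by A1CF (49.2 and 50.9) and SI (19.4 and 20.6). The place of A1CF above SI rests on its principal transcript of 1.997 kb, because its median transcript is 5.716 kb. In CPM, A1CF was below SI, at 98.2 and 102 CPM. SI, the sucrase-isomaltase gene activated by CDX2, was at 117 and 124 CPM with a log2 ratio of 0.08 (0.00 to 0.17). MEP1A had the largest log2 ratio, at 0.69 (-0.03 to 1.43), and VIL1 had 0.61 (0.38 to 0.85). Intervals lay above 0 for 3 of the 9 gut targets and below 0 for 0, against 15.8% and 15.9% of all genes. Whether the glucose libraries' CDX2 levels bear on these targets was not tested.

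Markers of other gut cells were measured to see which other programmes stood beside the factors. Of 28 markers, 15 had a row and 6 a mean of at least 1 CPM, with a summed level of 699.9 CPM in low and 632 CPM in high glucose. LYZ, the lysozyme gene of Paneth cells, was the most abundant at 288 and 269.8 CPM per kilobase, followed by the goblet cell gene TFF3 (186 and 140) and FCGBP (4.90 and 6.38). TFF3 had the largest log2 ratio, at -0.41 (-0.48 to -0.35), COL1A2 had 0.40 (-0.04 to 0.85), and FCGBP had 0.38 (0.21 to 0.55), opposite in sign to TFF3. The defensins DEFA5 and DEFA6 had no row, MUC2 was at 0.334 and 0.269 CPM, and none of the immune or endothelial markers exceeded 0.5 CPM. Among the stromal genes, PDGFRA was at 11.2 and 13.3 CPM and COL1A2 at 3.74 and 4.94 CPM. COL1A1 was under 3 counts in both libraries, and DCN had no row. The goblet cell gene CLCA1 was at 0.703 and 1.04 CPM. The stem cell gene LGR5 was at 11.1 and 11.4 CPM, while ASCL2, OLFM4 and SMOC2 had no row. ATOH1 and TFF3, genes of the secretory branch, were thus abundant beside the endocrine factors, while MUC2 and CLCA1 of the same branch were low. The part of these markers in the ratios of the factors was not tested.

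For likeness, the gene nearest to each factor was taken by Euclidean distance over log2 CPM in the 2 libraries. NEUROG3 had the same values as 9 other genes, PDGFB among them, so no single gene was nearest to it. CDX2 was nearest to SLC6A6 (30.2 and 38.2 CPM). RFX6 was nearest to PPFIBP2 and, among the endocrine and gut epithelial factors alone, to KLF4 (30.9 and 28.3 CPM). For the others, the nearest gene was C3orf17 for INSM1, PLAG1 for PAX6, COMMD10 for ISL1, WWP2 for FOXA2 and RBM47 for HNF4A. Within these same lists, the nearest factor was FEV for NEUROG3, FOXA3 for INSM1, SOX9 for PAX6, PROX1 for FOXA2 and ONECUT2 for HNF4A. With 2 libraries, such nearness restates the level and the ratio and carries no more.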

How the data were processed

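Polyadenylated RNA of hNCI-H716 cells was sequenced as paired ends with a TruSeq v2 kit. Per the study's methods and the submitters' processing notes, reads were trimmed (Trim Galore 0.5.0), aligned to GRCh38 with GENCODE gene models (STAR 2.6.0) and quantified (RSEM 1.3.1), genes with almost no counts over both libraries were removed, and the remainder was normalized with TMM in edgeR by the authors. The deposited values used were the CPM of 19989 genes, 1 column per library. The 6 other value columns hold the log2 CPM, the mean and the high over low comparison of the authors and were not used. The deposited CPM carry a prior of 0.0121 CPM (0.25 counts) and without it sum to the same total in each library, so that they show no TMM factor.

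From the steps in the low values, 1 count was worth 0.0460 CPM in low and 0.0514 CPM in high glucose. Of values under 10 CPM, 71.1% and 72.0% lay within 0.02 of a whole count, so these estimated counts were used for intervals and not for a count test. CPM were divided by TMM factors computed from them (0.998 and 1.002). The prior was kept. Genes whose mean was 1 CPM or more entered shares over all genes. Lengths and coordinates came from GENCODE v29 (longest APPRIS principal transcript), a release other than that of the study on the same assembly, and 73.4% of table symbols occur in it. Python 3.11.15, numpy 2.4.6, pandas 2.3.3, scipy 1.17.1 and matplotlib 3.10.9 were used, and the calculations were tested on simulated data.

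The factors, lists and rules were chosen with earlier results of these data known. Named were the factors, their relatives, up to 3 of the highest genes per kilobase and the 2 largest log2 ratios (mean of at least 1 CPM) of each list, cell type markers, genes needed to describe a factor, and the nearest genes. Listed genes named outside this rule, such as REST and GATA6, were chosen after their values were seen. Of 184 listed genes, 65 had no row, 0 of them under an older symbol. The alternatives were 2 other scalings, removal of the prior, pseudocounts of 1 and 0.01 CPM, other filters, a log2 ratio of 0.5 and 3 other lengths. Genes outside the lists were left out of the text because they are not part of the set.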

Additional observations from a re-analysis of the deposited data

How the results depend on the processing

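The levels and log2 ratios of the 8 factors with a row stayed within their counting intervals under each alternative tried for them (48 and 40 values). Library totals and median-of-ratios factors moved a log2 ratio by 0.004 at most, since they lie close to the TMM factors. The largest shift, of 0.24, came with a pseudocount of 1 CPM. The interval left out 0 for CDX2 and RFX6, and for 0 further factors, under each scaling and filter, and 0 factors passed the fold under each of 8 alternatives. All 49 recomputed medians of the lists stayed within the median counting error of their genes.

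The number of all genes past a log2 ratio of 1 in size, 109, became 31 once 1 CPM was added to each value, 2932 when genes of every level were kept, 9 at a mean of at least 10 CPM and 702 at a log2 ratio of 0.5. Adding 1 CPM pulls log2 ratios toward 0 by its construction, most of all for genes with few counts. The filters and the smaller fold change which genes are counted. The mean level per kilobase followed the length used, by construction. With the exon union it was 26.1 for ISL1, 19.9 for FOXA2, 15.1 for HNF4A, 7.26 for RFX6 and 0.0626 CPM for PAX6. With the median length of protein-coding transcripts it was 43.8 for ISL1, 72.0 for HNF4A and 0.738 CPM for PAX6. The longest protein-coding transcript left all 8 within their counting intervals.

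No paired analysis was possible because each concentration had 1 library. NEUROG3 and PAX6 rest on 7 to 30.4 counts, and depth limits what can be said of their ratios.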

Other observations

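The homeobox genes of the HOX clusters, which mark position along the body axis, were looked at after the data had been seen. In cluster A, 11 genes had a row and 7 had a mean of at least 10 CPM, with a summed level of 479 CPM in low and 476 CPM in high glucose. HOXA10 was the highest of them, at 138 CPM in both libraries, or 54.4 CPM per kilobase, against 8.47 for CDX2. HOXA9 was at 85.8 and 91.5 CPM, HOXA11 at 72.2 and 66.0 CPM, and HOXA13, a gene of the hindgut, at 39.0 and 41.2 CPM. Cluster B held 9 genes with a row, summing to 154 and 147 CPM, among them HOXB13 at 16.8 and 12.6 CPM, with a log2 ratio of -0.41 (-0.65 to -0.18). Clusters C and D were lower. The 8 genes of cluster C with a row summed to 35.5 and 33.6 CPM, and the 4 genes of cluster D to 3.33 CPM in each library, with HOXD13 at or under 3 counts in both.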
